A study of Homo sapiens with 6 samples.

Results

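The BCL2 family regulators of apoptosis described here are 10 genes, *BCL2*, *BCL2L1*, *MCL1*, *BAX*, *BAK1*, *BCL2L11*, *BID*, *BAD*, *BBC3* and *PMAIP1*, chosen by their symbols. All 10 were found among the 15917 genes of the deposited expression table. The experiment was total RNA-seq of MDA-MB-231, an established triple-negative human breast cancer line, in which the RNA binding protein RBMS3 was silenced. The labels describe 6 libraries, of which 2 came from cells with the control hairpin shCTRL (genotype label WT), 2 from cells with the hairpin shRBMS3-B3 (RBMS3 KD1) and 2 from cells with the hairpin shRBMS3-C3 (RBMS3 KD2). Every library, the controls included, therefore came from hairpin-bearing cells of a single line.

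The value analysed was the authors' mean normalized count of each gene, a single number that pools libraries. It holds neither a value per library nor an error, and the depth of the libraries is unknown. Levels of control and knockdown cells cannot be told apart in it, and no change upon *RBMS3* silencing is reported. What follows describes how abundant each family member was in this pool of MDA-MB-231 cells and what the members' transcripts look like. Fewer cells of a kind and less RNA per cell are also indistinguishable in such bulk RNA.

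BCL2 family proteins decide whether the outer mitochondrial membrane stays closed. The anti-apoptotic proteins BCL2, BCL-XL (from *BCL2L1*) and MCL1 hold the effectors BAX and BAK in check, and the effectors, once active, open pores that release cytochrome c. BH3-only proteins such as BIM (from *BCL2L11*), BID, BAD, PUMA (from *BBC3*) and NOXA (from *PMAIP1*) carry stress signals to both, by engaging the anti-apoptotic proteins or by activating the effectors.

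Longer transcripts collect more reads, so levels of genes were compared mainly per kb of transcript, and comparisons without division by length are labelled. The length was that of the MANE Select transcript, the agreed reference isoform, in GENCODE release 44. All 10 members have one, with 2 to 6 exons, and gene coordinates below are those of GENCODE on GRCh38 (hg38). A percentile states what share of the 15829 genes with an annotated length lay below the gene. The members spanned a 158-fold range of mean normalized count per kb, with *BCL2L1* at the top and *BCL2* at the bottom. Per kb of coding sequence the range was 66.4-fold and without division by length 80.1-fold, and *BBC3* was then the lowest. Of the 10 members, 7 lay above the median of all listed genes, which was 137 per kb, and 3 lay below it. The median percentile of the members was 69.4.

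Among the anti-apoptotic genes, *BCL2L1* (ENSG00000171552, chr20:31664452-31723989, minus strand) had the highest pooled level. Its mean normalized count was 9510, or 3695 per kb, at percentile 97.3. *MCL1* (ENSG00000143384, chr1:150560895-150579738, minus strand), whose protein turns over rapidly, had a mean normalized count of 3830, or 970 per kb, at percentile 89.4. *BCL2* (ENSG00000171791, chr18:63123346-63320128, minus strand), the founding member of the family, had a mean normalized count of 161, or 23.4 per kb, at percentile 12.8. Per kb, the pooled level of *BCL2L1* was 3.81 times that of *MCL1* and 158 times that of *BCL2*. The ratio to *BCL2* was 60.6 per kb of coding sequence and 59.1 without division by length. *BCL2L1* made up 78.8% of the summed level per kb of the 3 anti-apoptotic genes, *MCL1* 20.7% and *BCL2* 0.499%. Without division by length these shares were 70.4%, 28.4% and 1.19%.

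The effector *BAX* (ENSG00000087088, chr19:48954815-48961798, plus strand) had a mean normalized count of 794, or 999 per kb, at percentile 89.7. *BAK1* (ENSG00000030110, chr6:33572547-33580293, minus strand), which encodes the effector BAK, had a mean normalized count of 517, or 238 per kb, at percentile 64.1. The pooled level of *BAX* per kb was thus 4.19 times that of *BAK1*. This ratio rested on the short *BAX* reference transcript of 795 bases and was 2.50 with the longest annotated transcript of each gene and 1.69 per kb of coding sequence.

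The BH3-only genes lay between percentiles 22.6 and 90.9. *BAD* (ENSG00000002330, chr11:64269830-64284704, minus strand), a sensor of growth factor signalling that binds BCL2 and BCL-XL, was the highest of them per kb of transcript with a mean normalized count of 1063, or 1144 per kb, at percentile 90.9. *PMAIP1* (ENSG00000141682, chr18:59899996-59904305, plus strand), whose product NOXA binds MCL1, had a mean normalized count of 590, or 311 per kb, at percentile 70.4. Per kb of coding sequence this order was reversed, with 3642 for *PMAIP1* and 2108 for *BAD*. *BID* (ENSG00000015475, chr22:17734138-17774770, minus strand), which links death receptors to mitochondria after cleavage by caspase-8, had a mean normalized count of 617, or 283 per kb, at percentile 68.4. The remaining BH3-only members, whose products bind all main anti-apoptotic relatives, lay in the lower part of the table. *BBC3* (ENSG00000105327, chr19:47220822-47232766, minus strand), whose product is PUMA, had a mean normalized count of 119, or 64.3 per kb, at percentile 31.1. *BCL2L11* (ENSG00000153094, chr2:111119378-111168444, plus strand) had a mean normalized count of 218, or 42.7 per kb, at percentile 22.6.

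**Figure D1:**
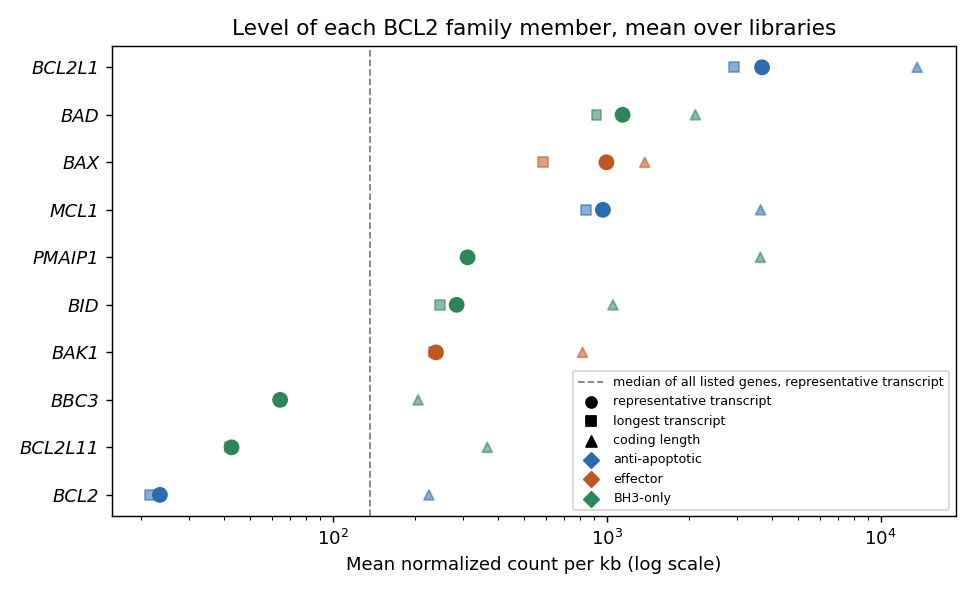
Mean normalized count per kb (log axis) of the 10 members, pooled over libraries by the authors, divided by the representative transcript (circles), the longest transcript (squares) or the coding length (triangles), with colours for the role of the protein. *BCL2L1* lies highest with each length, and *BBC3*, *BCL2L11* and *BCL2* lie below the dashed median of 137 per kb by the circles.

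In the order of level per kb, *BCL2L1* was followed by *BAD*, *BAX*, *MCL1*, *PMAIP1*, *BID*, *BAK1*, *BBC3*, *BCL2L11* and *BCL2*. No spread between libraries was analysed, so no neighbours in this order can be said to differ. *BAX* stood only 1.03 times above *MCL1*, and these genes changed places when the longest transcript was used. Wider steps separated *BCL2L1* from *BAD* (3.23-fold), *MCL1* from *PMAIP1* (3.12-fold) and *BAK1* from *BBC3* (3.71-fold). The step between *MCL1* and *PMAIP1* depended on the length used: per kb of coding sequence the ratio of *MCL1* to *PMAIP1* was 1.00, and *PMAIP1* lay above *BAD* and *BAX*. Summed by role, anti-apoptotic genes held 60.3% of the members' level per kb, BH3-only genes 23.7% and effectors 15.9%. The share of the effectors was 8.12% per kb of coding sequence and 7.53% without division by length, where BH3-only genes held 15.0% and anti-apoptotic genes 77.5%. These are shares of transcripts, and protein levels were not measured in this assay. Each level is 1 value per gene, and the annotated transcripts of a gene (15 for *BCL2L1*, 8 for *MCL1*) were not told apart.

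The labelled line was checked against marker genes. All 6 markers fixed for it were listed, from *ZEB1* at percentile 56.1 to *VIM* at percentile 99.6. Of 9 epithelial or luminal genes taken to be low or lacking, 6 were listed, and *ESR1*, *PGR* and *FOXA1* were not. *CDH1* stood at percentile 1.58, *GATA3* at 27.9 and *EPCAM* at 32.8. *KRT8* and *KRT18*, on the same list, stood at percentiles 98.8 and 98.7, and *ERBB2* at 72.5. *PTPRC* and *COL1A2*, markers of blood cells and fibroblasts, were not listed, while *COL1A1* stood at percentile 17.6 and the endothelial *PECAM1* at 3.80. The targeted gene *RBMS3* had a mean normalized count of 272 over the pooled libraries, at percentile 17.3 per kb, a value that does not check the knockdown. Genes under a mean normalized count of 26.7 are absent from the table, so a gene that is not listed may still be expressed below that level.

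Beyond the 10 members, several relatives were listed. Of 4 other anti-apoptotic genes, *BCL2L12* (percentile 80.4) and *BCL2L2*, which encodes BCL-W (51.7), were listed, and *BCL2A1* and *BCL2L10* were not. The effector relative *BOK* stood at percentile 70.1, above *BAK1*. Of 3 other BH3-only genes, *BMF* was listed at percentile 3.20, below every member, and *BIK* and *HRK* were not listed. Of 9 further relatives and partners, 7 were listed, from *BNIP2* at percentile 41.3 to the mitophagy receptor *BNIP3* at 91.3. *BECN1*, the autophagy protein that binds BCL2 through a BH3 domain, stood at percentile 87.6.

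Downstream of the pore, all 3 genes of the apoptosome list were present. *CYCS*, which encodes cytochrome c, stood at percentile 78.6, the scaffold *APAF1* at 41.5 and the initiator caspase *CASP9* at 24.2. Among 7 caspase inhibitors and their antagonists, *BIRC5*, which encodes the mitotic protein survivin, was highest at percentile 93.2 and *BIRC3* lowest at 9.65. *DIABLO*, an antagonist of these inhibitors that leaves mitochondria through the same pores, stood at 83.9. The 3 voltage-dependent channels of the outer membrane, *VDAC1*, *VDAC2* and *VDAC3*, lay between percentiles 88.7 and 95.4, a range reached by *BAX*, *MCL1* and *BAD* and exceeded by *BCL2L1*.

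**Figure D2:**
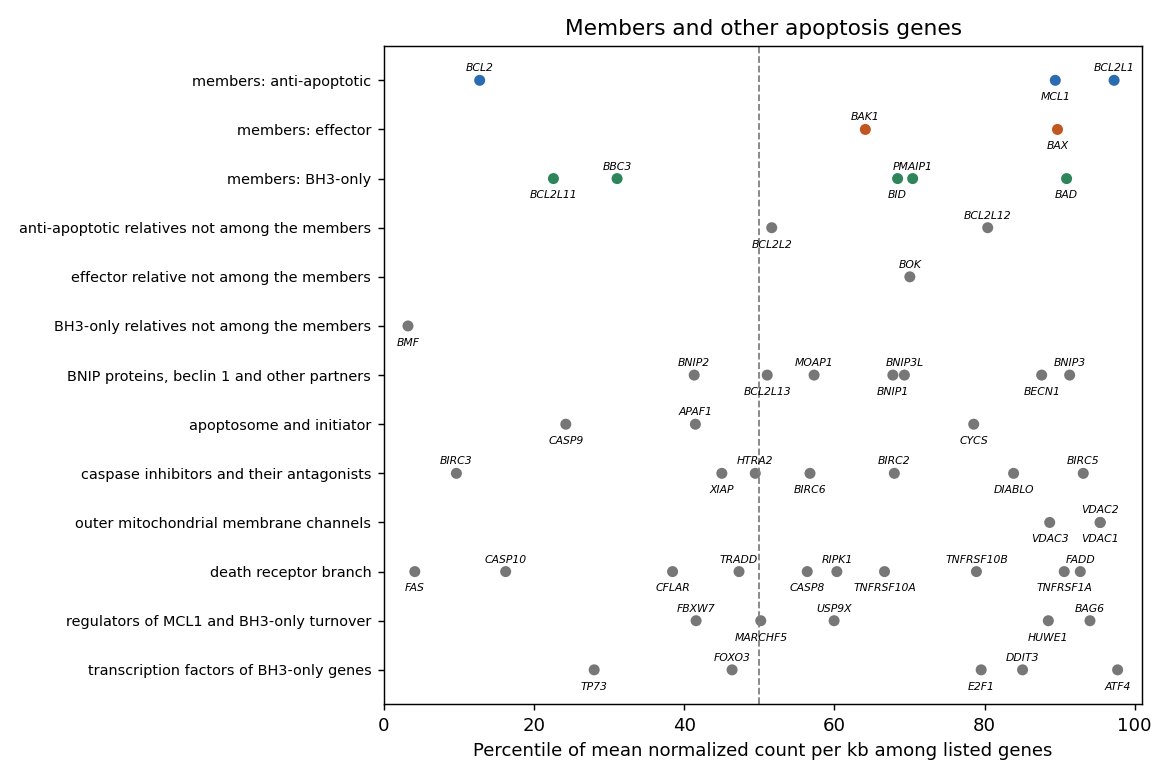
Percentile of mean normalized count per kb among all listed genes for the 10 members, by role, and for 44 other apoptosis genes, by list. Points are single genes, the dashed line marks the middle of the table, and the members run from *BCL2* at 12.8 to *BCL2L1* at 97.3.

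The study examined an AUA element in 3′UTRs as a binding sequence of RBMS3, so the members' transcripts were searched for it. The motif has 7 bases, namely A, G or T, then A or T, then ATA, then A or T, then A, and was counted on the transcript strand with overlaps. It was found in 9 of the 10 members, against 84.8% of the 12351 listed genes with a 3′UTR. The members' 3′UTRs ranged from 162 bases in *BAX* to 5279 bases in *BCL2*, and the number of matches ranged from none in *BBC3* to 17 in *BCL2*. Longer 3′UTRs hold more matches by their length alone, so each member was set beside listed genes whose 3′UTR length lay within 10% of its own.

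*PMAIP1* had 10 matches in 1552 bases, where genes of like length had a median of 3. Its 3′UTR was 68.6% A and U, more than in 93.3% of those genes. *BCL2* had 17 matches against a median of 13, and *BCL2L11* had 11 in 4213 bases against a median of 10. *MCL1* had 6 in 2817 bases against a median of 7, and *BID* had 3 in 1442 bases, equal to the median of its group. *BCL2L1* and *BAK1* each had 1 match where genes of like length had a median of 3, and their 3′UTRs held 43.4% and 42.8% A and U. *BAD* and *BAX* each had 1 match, which equalled the median for their short 3′UTRs. *BBC3* had none in 978 bases, where 86.9% of genes of like length had at least 1, and its 3′UTR held 36.9% A and U.

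**Figure D3:**
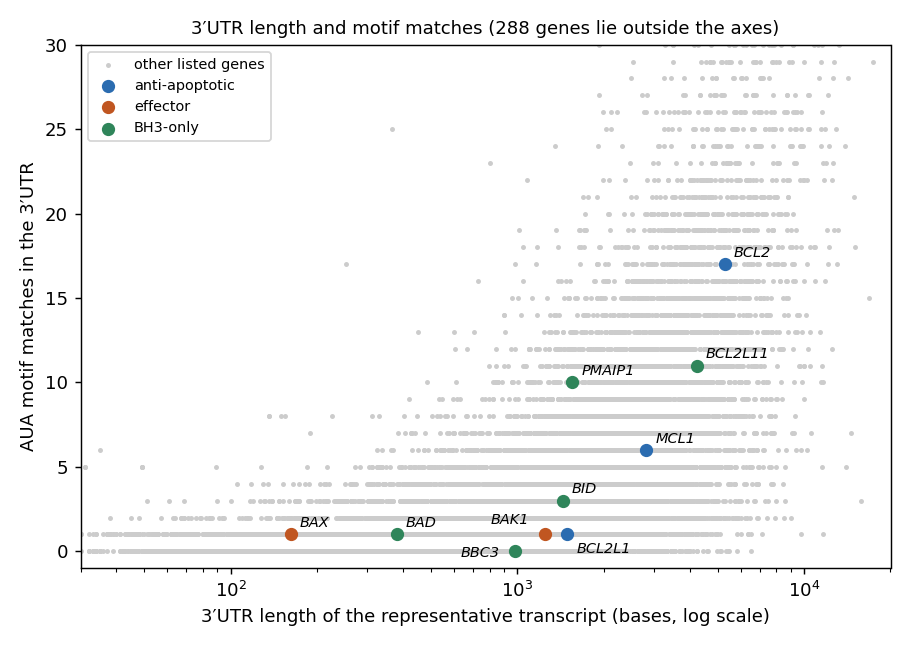
Matches to the AUA motif against 3′UTR length in bases (log axis) for the 10 members, coloured by role, and other listed genes with a 3′UTR in grey. The title counts the genes that lie outside the axes. *PMAIP1* lies high for its length with 10 matches, and *BCL2L1*, *BAK1* and *BBC3* lie low with 1, 1 and none.

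The motif includes sequences that contain AATAAA, the usual signal for cleavage and polyadenylation. In the 4 members with a single match, *BCL2L1*, *BAK1*, *BAX* and *BAD*, that match held AATAAA and ended 16 to 18 bases before the annotated transcript end. These 4 sites are shown in the strand of the gene with the match in capitals, followed by a match in *MCL1* and one in *PMAIP1* that hold no AATAAA.
BCL2L1: tgcagttcagTAATAAActgtgtttac
BAK1: gagtgtttggAAATAAActgtgcaatc
BAX: cttgagggggTAATAAAcctccttcgg
BAD: taccaaatgtTAATAAAgcccgcgtct
MCL1: tgtaaaaattGTATATAtttttacaga
PMAIP1: atgcattggtGAATATAtatgtataca

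These windows come from GENCODE transcripts on GRCh38. They lie at chr20:31664466-31664492 on the minus strand for *BCL2L1*, chr6:33572558-33572584 on the minus strand for *BAK1*, chr19:48961766-48961792 on the plus strand for *BAX* and chr11:64269838-64269864 on the minus strand for *BAD*. The *MCL1* window lies at chr1:150576665-150576691 on the minus strand, 2117 bases before the transcript end as counted from the match. The *PMAIP1* window lies at chr18:59903786-59903812 on the plus strand, and its match ends 503 bases before the transcript end. All 6 windows are within 3′UTRs.

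Over the family, 20 of 51 matches held AATAAA. A match of this kind that ended within 30 bases of the transcript end was present in 8 of 10 members, against 50.4% of listed genes with a 3′UTR. A match without AATAAA was present in 5 members, namely *BCL2* with 12, *BCL2L11* with 9, *PMAIP1* with 6, *MCL1* with 3 and *BID* with 1, against 62.4% of listed genes. Neither share of listed genes was matched for 3′UTR length. The division by AATAAA was made after the sites had been seen. In the paper, AATAAA was the most significant motif among the RBMS3 CLIP sites, so this division does not sort matches by binding. A match is a description of the letters. The study mapped binding of FLAG-tagged RBMS3 in this line by CLIP-seq, and binding to these transcripts was not examined here.

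Annotated exons of another gene on the opposite strand overlapped 4 of the representative transcripts. The counts in this paragraph are not divided by length, and each covers a whole gene, not only the overlapping bases. The antisense RNA *ABALON* overlapped 36.7% of the *BCL2L1* transcript and had a mean normalized count of 138, against 9510 for *BCL2L1*. *GPR137* overlapped 33.8% of the *BAD* transcript and had a mean normalized count of 489, against 1063 for *BAD*. The long noncoding RNA gene *MIR4435-2HG*, listed as AC068491.1, overlapped 14.3% of the *BCL2L11* transcript and had a mean normalized count of 1206, against 218 for *BCL2L11*. The pseudogene *GGNBP1* overlapped 4.19% of the *BAK1* transcript and was not listed. The library kit keeps strand, but whether counting used it is not given in the sources used here, and the levels of *BCL2L11* and *BAD* are uncertain to that extent.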

How the data were processed

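MDA-MB-231 cells with a control hairpin (2 libraries) or with either of 2 *RBMS3* hairpins (2 libraries each) were profiled with a stranded total RNA kit and paired-end sequencing. Per the labels, Salmon, DESeq2 and the build hg38 were used, and versions are not given. The authors deposited a table with a mean normalized count per gene (a signal: counts divided by size factors and averaged over libraries); which libraries entered is not stated, and a legend in the study gives 2 replicates of knockdown and 2 of control cells for the comparison, so the mean may pool fewer than the 6 libraries. Its 5 other value columns hold the authors' own comparison of knockdown and control cells (log2 fold change, its error, test statistic and p-values) and were not used. No test between groups was therefore possible.

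Annotation was taken from GENCODE release 44 (GRCh38), in which 15829 of the 15917 Ensembl identifiers were found and 88 were not. Means were divided by the length in kb of the MANE Select transcript, or, where a gene has none, of its Ensembl canonical transcript or the one with most coding bases, and ranked. Members were matched by symbol and other lists by identifier. A 3′UTR needed at least 7 bases. The ranking function was tested on simulated data against direct counting. Python 3.11.15, numpy 2.4.6, pandas 2.3.3 and matplotlib 3.10.9 were used. All members were named, and of each list up to 4 genes with the highest and 2 with the lowest level per kb. Members and lists were chosen with earlier results of these data known, and a few genes of the lists are not reported here. Other lengths, protein-coding genes alone and a minimum mean of 100 were tried as alternatives.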

Additional observations from a re-analysis of the deposited data

How the results depend on the processing

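All 10 members were also found by Ensembl identifier, and 43 in place of 44 genes of the wider lists were found by symbol (this alternative was added once the data had been seen). The median percentile of the members was 69.4. It was 71.3 with the longest annotated transcript, 80.3 with the coding length, 62.2 without division by length, 68.0 among the 12408 protein-coding genes and 60.6 among the 11965 genes with a mean of at least 100. Percentiles with the coding length were ranked only among genes with annotated coding bases. Among 40 percentiles of single members under 4 of these alternatives, 1 crossed the middle of the table, that of *BCL2L11*, which moved from 22.6 to 50.3 with the coding length. With the coding length *PMAIP1* moved from percentile 70.4 to 94.4 and *BCL2* from 12.8 to 36.9. The percentile of *BCL2L1* lay between 97.1 and 98.8 under these 4. Among genes with a mean of at least 100, the percentile of every member was lower than in the main ranking. There *BCL2L1* stood at 96.4, *BBC3* at 16.4, *BCL2L11* at 8.59 and *BCL2* at 2.24. In *BCL2L11*, *PMAIP1* and *BCL2*, 82.6%, 81.7% and 76.7% of the transcript is 3′UTR. No paired analysis was possible because the value analysed pools libraries and carries no replicate. For the same reason no library was left out, and no other normalization was run.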

Other observations

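Genes that act on the family from outside were also ranked by mean normalized count per kb. All 5 transcription factors listed as drivers of BH3-only genes were present, with a median percentile of 79.6. *ATF4*, a factor of the integrated stress response that raises *PMAIP1*, stood highest at 97.7. *DDIT3* stood at 85.1, while *FOXO3*, a driver of *BCL2L11*, stood at 46.4 and *TP73* at 28.0. The BH3-only members themselves stood at 90.9 (*BAD*), 70.4 (*PMAIP1*), 68.4 (*BID*), 31.1 (*BBC3*) and 22.6 (*BCL2L11*). A factor's transcript says nothing of its activity.

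Of 6 genes for the turnover of MCL1 and BH3-only proteins, 5 were listed. *BAG6* stood at percentile 94.0 and *HUWE1*, an MCL1 ubiquitin ligase, at 88.5, while *FBXW7*, part of another MCL1 ligase, stood at 41.6. In the death receptor branch all 10 genes were listed, with a median percentile of 58.4. The adaptor *FADD* stood at 92.8 and the receptor *TNFRSF1A* at 90.6, whereas *FAS* stood at 4.11 with a mean normalized count of 38.3. *TNFRSF10B* and *TNFRSF10A*, the receptors for TRAIL, stood at 78.9 and 66.7. The initiator *CASP10* stood at 16.2. These are single pooled values without an error.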
